A study of Mus musculus with 9 samples.

Results

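Sprouty, Spred and Ras GTPase-activating proteins are inhibitors of Ras, the small GTPase that passes signals from cytokine receptors and receptor tyrosine kinases to the Raf, MEK and ERK kinases. The 10 genes described here, of 37980 genes in the deposited table, were taken by name as members of these families: the Sprouty genes Spry1, Spry2 and Spry4, the Spred genes Spred1, Spred2 and Spred3, and the Ras GTPase-activating protein (GAP) genes Nf1, Rasa1, Rasa2 and Rasa3. All 10 were found in the table and all passed the filter on low values. They were compared in myeloid progenitors (MPs) between 4 NA MP samples and 5 WT MP samples, a comparison made to learn how the fusion gene NUP98-HOXA10hd (NA) alters gene expression in donor-derived progenitors.

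Each sample was a sort of 100000 Lin-ckit+Sca1- bone marrow cells from recipients of transplanted multipotent progenitors (MPPs), 3 months post transplantation according to the labels. The study's methods give a later time point. NA MPs were Tdtomato+ cells descended from MPPs of NA LSL/+; Vav-Cre mice, in which Cre driven by the pan-haematopoietic Vav promoter switches on the fusion gene, and WT MPs were sorted as CD45.2+ after transplantation of WT MPPs, both on the C57BL/6 strain. All recipients were irradiated adults and also received helper bone marrow cells, so the marrow could hold donor, helper and surviving host cells. The study describes recipients as CD45.2+ and in places WT donor cells as CD45.1+, so whether the WT MPs were donor, helper or host cells, and whether they held any donor cells, cannot be told from the sources used here. The marker used in the sort differed between the groups. No age was given in the labels, and nothing says whether a sample was 1 mouse, so the p-values measure the spread between these samples.

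Ras switches between a GTP-bound active and a GDP-bound inactive form. GAPs speed up the hydrolysis of GTP by Ras and thereby turn it off. Neurofibromin, the product of Nf1, is the GAP whose loss in blood-forming cells is known from juvenile myelomonocytic leukaemia. Spred proteins carry neurofibromin to the plasma membrane, and Sprouty proteins, many of which are induced by ERK itself, block the path from receptor to Ras as negative feedback.

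RNA was sequenced and the deposited values were already scaled between samples. They are called normalised counts here: in each column 97.6% to 98.0% of the values above 0 were whole multiples of a single step, and dividing by that step gives 5557719 to 8106141 reads per sample. As a check of the labels, Hoxa10 was 129 ± 17.7 normalised counts in NA MPs (SD, n = 4) and 8.05 ± 2.57 in WT MPs (SD, n = 5), and Nup98 was 956 ± 81.8 and 599 ± 29.9. For both partners of the fusion every NA MP sample lay above every WT MP sample, and reads of the fusion and of the endogenous genes cannot be told apart in these values. The summed level of 8 myeloid progenitor markers, among them Mpo, Elane and Kit, was 160512 to 176420.0 in NA MPs and 156689 to 163215 in WT MPs. These ranges overlapped. Of the 8 markers, 3 were higher and 1 was lower in NA MPs at an adjusted p-value under 0.05 from limma. Among all genes tested 34.3% differed at that threshold. The groups were set apart by the leading principal component (65.8% of the variance), and NA MP replicate 1 stood apart from the other samples on the next (6.12%).

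The upstream sequences of the 3 members that passed the test are shown first, as windows whose use as promoters in these cells was not tested. They are the 250 bases before the RefSeq start of each gene (GRCm38.p6, the mm10 assembly that the submitters' processing notes name), 5′ to 3′ on the gene's strand. Capitals mark matches to the motifs searched, on either strand.
Spry1, chr3:37639697-37639946, plus strand: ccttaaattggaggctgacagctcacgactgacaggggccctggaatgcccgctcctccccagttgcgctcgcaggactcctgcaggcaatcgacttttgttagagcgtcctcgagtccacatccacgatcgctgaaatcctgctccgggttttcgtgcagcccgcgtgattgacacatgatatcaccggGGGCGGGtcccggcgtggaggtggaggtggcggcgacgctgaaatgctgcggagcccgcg
Spred3, chr7:29168648-29168897, minus strand: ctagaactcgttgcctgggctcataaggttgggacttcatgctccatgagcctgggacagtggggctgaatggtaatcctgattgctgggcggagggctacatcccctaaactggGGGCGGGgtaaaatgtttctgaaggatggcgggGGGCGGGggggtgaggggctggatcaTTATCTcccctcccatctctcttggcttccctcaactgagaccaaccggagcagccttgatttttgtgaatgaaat
Rasa1, chr13:85289487-85289736, minus strand: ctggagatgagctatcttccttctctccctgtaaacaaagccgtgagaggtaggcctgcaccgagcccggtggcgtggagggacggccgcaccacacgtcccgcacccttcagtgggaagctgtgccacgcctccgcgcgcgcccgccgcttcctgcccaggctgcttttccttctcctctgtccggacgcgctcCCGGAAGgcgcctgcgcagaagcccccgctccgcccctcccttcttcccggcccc
The Spry1 window overlapped an exon of Gm42922, a gene on the opposite strand. The Spred3 window lay within the longer Spred3 gene of GENCODE M21 but in none of its exons. The capitals are SP1 matches (GGGCGGG) in Spry1 and Spred3, a GATA match (AGATAA) in Spred3 and an ETS match (CCGGAAG) in Rasa1. RefSeq windows were found for 9 of the 10 members. The window of Spry4 was not used here. Among all 32851 windows of the same length SP1 matches were in 23.4%, GATA matches in 9.99% and ETS matches in 6.91%. Nf1 also held an ETS match, and Rasa2 and Rasa3 held SP1 matches. The search also covered the cyclic AMP response element (TGACGTCA, in 1.55% of all windows), AP-1 (TGANTCA, 6.75%), HOX-PBX (TGATTNAT, 2.82%), E2F (TTTCCCGC, 0.895%) and the SRF CArG box (1.47%), and these letters were in none of the 9 windows. A match is a description of letters and not evidence of binding.

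The members covered a wide range of levels. Per kilobase of exon, the mean level in WT MPs ran from 194 ± 5.35 normalised counts (SD, n = 5) for Rasa3 down to 2.83 ± 0.887 for Spry4. The length was the union of all exons annotated for a gene in GENCODE M21, and the order between genes depends on that choice. Rasa3, a GAP of the phosphoinositide-binding GAP1 family, stood far above the rest in every sample. Spred2 followed at 65.4 ± 5.73, then Rasa1 at 55.6 ± 2.28, Spry2 at 54.4 ± 5.74 and Spred1 at 51.3 ± 1.66. Of these, the order of Rasa1, Spry2 and Spred1 was not fixed: Rasa1 was above Spry2 in 4 of 5 WT MP samples but in 1 of 4 NA MP samples, and Spry2 was above Spred1 in 3 of 5 and 3 of 4. Below them came Rasa2 at 18.1 ± 0.661 and Nf1 at 14.6 ± 0.803. Spry1 at 8.18 ± 1.88 and Spred3 at 7.51 ± 1.18 could not be ordered, with Spry1 higher in 3 of 5 WT MP and 3 of 4 NA MP samples. In NA MPs, where Spry1 was 13.5 ± 5.28 (SD, n = 4) and Nf1 13.2 ± 1.32, Nf1 was above Spry1 in only 3 of 4 samples. Among the Sprouty genes Spry4 was lowest, and Spry1 was also well below Spry2. Among the Spred genes Spred3 was well below the others.

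**Figure D1:**
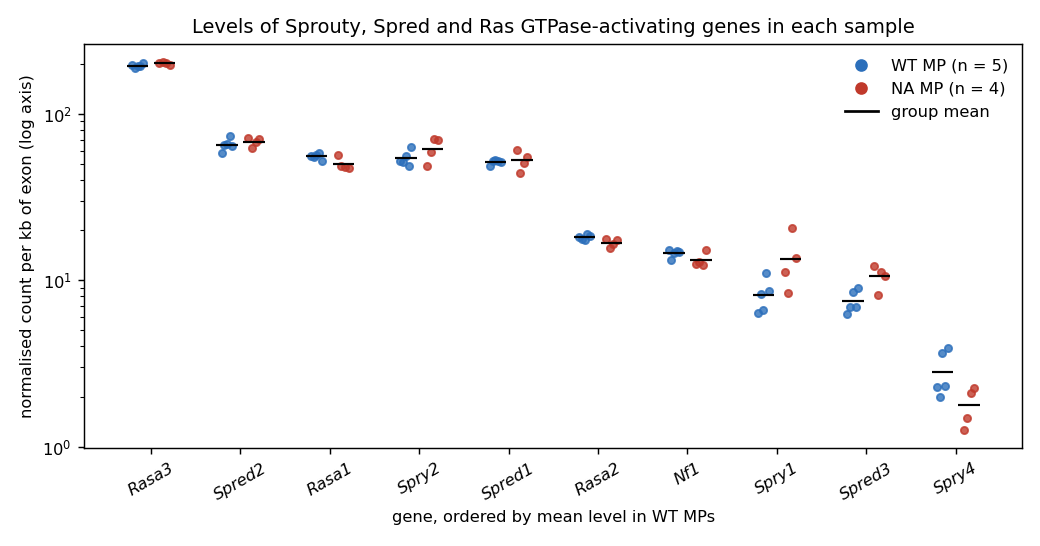
Level of each Sprouty, Spred and Ras GAP gene, as normalised count per kilobase of exon on a log axis, with 1 point per sample (WT MPs blue, NA MPs red) and black lines at the group means. Rasa3 is highest in all 9 samples and Spry4 lowest, and the points of the groups overlap for every gene.

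At an adjusted p-value under 0.05 from limma, 3 of the 10 members differed between NA MPs and WT MPs, set beside 34.3% of all 11987 genes tested. Spry1 and Spred3 were higher in NA MPs and Rasa1 was lower. Over all genes tested, 2030 (16.9%) were higher and 2077 (17.3%) were lower. With a correction for GC content and exonic length the split over all genes was 1627 higher and 2586 lower, and Rasa1 was no longer past the threshold. The share of members called was near that of all genes. Their median log2 fold change was 0.044, against -0.0081 over all genes. For none of the 10 were the groups free of overlap, a pattern that 26.3% of all genes tested showed, and none differed by more than 2-fold. The summed normalised count of the 10 genes was 2639.8 to 2889 in NA MPs and 2682 to 2832 in WT MPs, ranges that overlapped. Without NA MP replicate 1, which stood apart, 4 members passed, and without NA MP replicate 3 only Spred3 did.

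**Figure D2:**
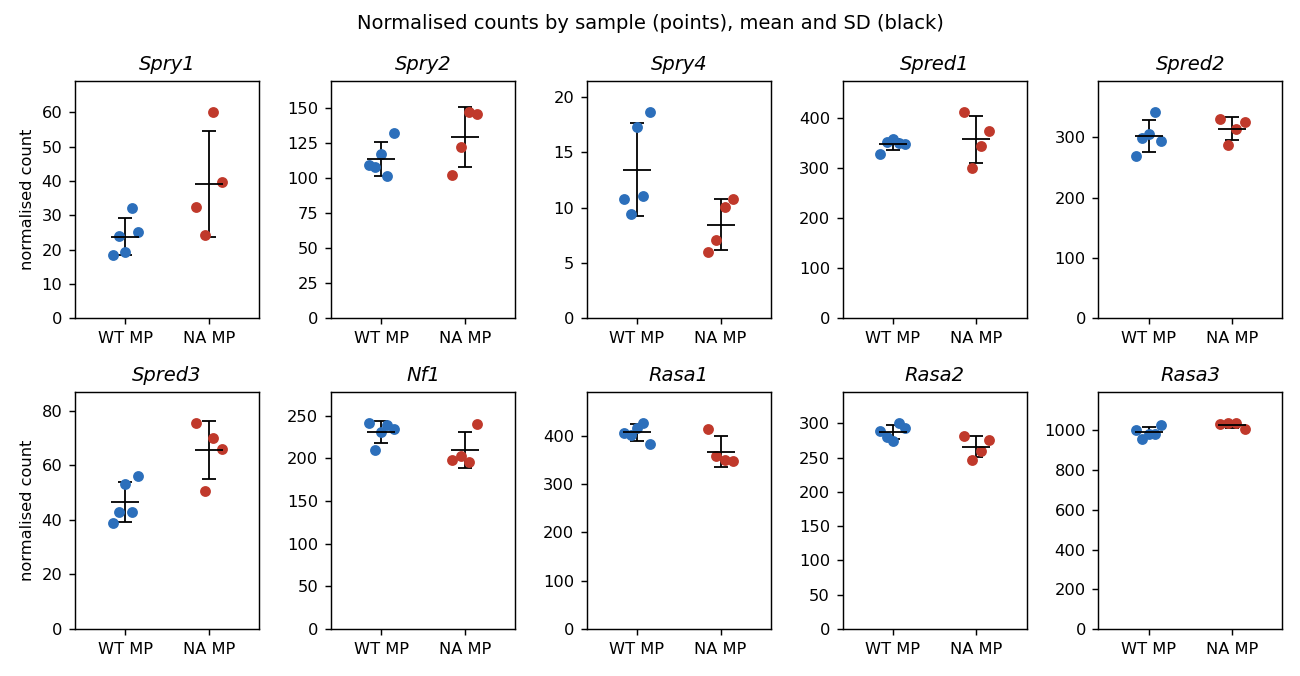
Normalised count of each member in the 5 WT MP samples (blue) and 4 NA MP samples (red), with the mean and SD in black, on axes that start at 0. NA MP replicate 3 is the highest Spry1 point at 60.1, and Rasa3 has the narrowest spread for its level.

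Among the Sprouty genes, Spry1 rose by 56.6% in NA MPs, while Spry2, with a higher mean, and Spry4, with a lower mean, did not pass the test. Spry1 (ENSMUSG00000037211, chr3:37639947-37644598, plus strand, as annotated in GENCODE M21 on GRCm38) encodes a membrane-associated feedback inhibitor of receptor signalling. Its normalised counts were 32.4, 24.3, 60.1 and 39.7 in NA MP replicates 1 to 4. In WT MP replicates 1 to 5 they were 18.3, 23.96, 19.4, 32.02 and 25.2. NA MP replicate 3 was the highest of all samples, and NA MP replicate 2 lay within the WT MP range. The means were 39.1 ± 15.4 (SD, n = 4) and 23.8 ± 5.45 (SD, n = 5), and the log2 fold change was 0.65 (SE, the standard error, 0.21, adjusted p = 0.0142 from limma), with a 95% interval of the percent change of 16.9% to 109.7%. Intervals are those of 1 gene, without adjustment over genes. The exact two-sided permutation test of the group labels gave p = 0.0635, where 0.0159 is the smallest it can give. Without NA MP replicate 3 the log2 fold change was 0.42 and did not pass (adjusted p = 0.139 from limma). Only 17 to 54 reads per sample lay behind these values, and the coefficient of variation was 39.2% in NA MPs against 22.9% in WT MPs. An exon of Spry1 overlaps Gm42922 on the opposite strand, which has no value here, and whether the counting used strand is not given in the sources used here.

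Spry2 (ENSMUSG00000022114, chr14:105891947-105896819, minus strand), which encodes the Sprouty protein that binds the ubiquitin ligase Cbl, was the most abundant Sprouty transcript per kilobase. It was counted at 102, 122, 147 and 145 in the NA MP replicates. The WT MP replicates held 109, 108, 117, 101 and 132. NA MP replicates 3 and 4 were above all WT MP samples, while NA MP replicate 1 was below most of them. The difference did not pass the test (0.18 on the log2 scale, SE 0.10, adjusted p = 0.183 from limma), and its 95% interval of -1.897% to 30.2% holds both a rise and no change. Without NA MP replicate 1, the sample that stood apart, the log2 fold change was 0.28 and passed (adjusted p = 0.0245 from limma).

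Spry4 (ENSMUSG00000024427, chromosome 18, minus strand), an inhibitor of Ras activation by receptor tyrosine kinases, was near the lower limit of detection with 5 to 20 reads per sample. Its normalised counts were 6.002, 7.08, 10.02 and 10.7 in NA MPs. In WT MPs they were 10.8, 9.41, 17.3, 11.01 and 18.6. NA MP replicates 1 and 2 were below all other samples, and the upper NA MP values lay among the lower WT MP values. The log2 fold change of -0.59 (SE 0.29) did not pass (adjusted p = 0.115 from limma; exact permutation p = 0.0794). The 95% interval of the percent change reached from -55.98% almost to 0, at -0.264%. Spry4 was at 10 or above in 4 WT MP and 2 NA MP samples, so it reached the filter on low values mainly through the group where it was higher.

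Among the Spred genes, Spred3 rose by 39.4% in NA MPs, and neither Spred1 nor Spred2, the abundant members, passed the test. Spred proteins join an EVH1 domain to a Sprouty-related domain. Spred3 (ENSMUSG00000037239, chr7:29158829-29170411, minus strand) was counted at 75.6, 50.6, 70.1 and 66.1 in NA MPs. It was counted at 38.8, 42.8, 52.98, 43.03 and 55.9 in WT MPs. NA MP replicates 1, 3 and 4 lay above all WT MP samples, and NA MP replicate 2 lay within the WT MP range. The means were 65.6 ± 10.8 (SD, n = 4) and 46.7 ± 7.33 (SD, n = 5), with log2 fold change 0.48 (SE 0.14, adjusted p = 0.00658 from limma; exact two-sided permutation p = 0.0476). The 95% interval of the percent change was 14.5% to 69.8%. Spred3 was past the threshold in all 20 alternative settings in which it was recomputed, with an adjusted p from limma of 0.00142 to 0.0345. An exon of Spred3 overlaps Ggn on the opposite strand. Ggn had 14.1 to 18.9 normalised counts in NA MPs and 7.70 to 12.2 in WT MPs, so it was higher in NA MPs as well, and whether its reads are part of the Spred3 count was not tested.

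Spred1 (ENSMUSG00000027351, chr2:117121374-117182279, plus strand), the Spred protein whose loss in humans gives Legius syndrome, had counts of 413, 301, 344 and 375 in NA MPs. In WT MPs its counts were 329, 353, 359, 351 and 349. The WT MP samples lay within the wider NA MP range, which NA MP replicates 1 and 2 spanned, and the coefficient of variation was 13.2% in NA MPs and 3.24% in WT MPs. The log2 fold change was 0.032 with a 95% interval of -0.10 to 0.16 (adjusted p = 0.746 from limma), and its sign turned when NA MP replicate 1 was left out. Spred2 (ENSMUSG00000045671, chr11:19924375-20024026, plus strand), a close relative that also binds the receptor Kit, had counts of 331, 287, 314 and 326 in NA MPs. In WT MPs they were 269, 299, 306, 342 and 294. The NA MP values lay within the range of the WT MP values. Its log2 fold change was 0.060, with a 95% interval of -0.068 to 0.19 (adjusted p = 0.504 from limma), so that a change of over 14.0% in the upward direction lies outside the interval.

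Of the 4 GAP genes only Rasa1 passed the test. Nf1, Rasa1 and Rasa2 had lower means in NA MPs, with changes of -9.47%, -9.93% and -7.49%. Rasa3 had a mean 3.91% higher. Nf1 (ENSMUSG00000020716, chr11:79339693-79581612, plus strand) was counted at 198, 203, 196 and 241 in NA MPs. It was counted at 242, 209.6, 230.3, 239 and 234 in WT MPs. NA MP replicates 1, 2 and 3 were below all WT MP samples, and NA MP replicate 4 lay near the top of the WT MP range. The log2 fold change was -0.14 (SE 0.071, adjusted p = 0.118 from limma; exact permutation p = 0.0952), and without NA MP replicate 4 it was -0.21 and passed (adjusted p = 0.0251 from limma).

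Rasa1 (ENSMUSG00000021549, chr13:85214780-85289130, minus strand) encodes the SH2-domain GAP that docks on phosphorylated receptors and on Dok adaptors. Its normalised counts were 414, 358, 349.6 and 347 in NA MPs. In WT MPs they were 407, 401, 417, 427 and 383. NA MP replicates 2, 3 and 4 lay below all WT MP samples, and NA MP replicate 1 lay near their top. The means were 367 ± 31.6 (SD, n = 4) and 407 ± 16.7 (SD, n = 5), with log2 fold change -0.15 (SE 0.056, adjusted p = 0.0332 from limma; exact two-sided permutation p = 0.0635). It passed in 12 of 20 alternative settings. An exon overlaps Ccnh on the opposite strand, which was at 310 to 366 normalised counts in NA MPs and 341 to 364 in WT MPs. Without NA MP replicate 2, 3 or 4 or WT MP replicate 3 or 4 in turn, the adjusted p of Rasa1 from limma was 0.0778, 0.108, 0.114, 0.0710 and 0.0876.

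Rasa2 (ENSMUSG00000032413, chr9:96539300-96631617, minus strand) and Rasa3 (ENSMUSG00000031453, chr8:13566948-13677603, minus strand) encode GAPs that bind membrane lipids. Rasa2 was counted at 282, 247, 261 and 276 in NA MPs. It was counted at 289, 279.8, 275, 301 and 294 in WT MPs. NA MP replicates 2 and 3 lay below all WT MP samples. Its log2 fold change of -0.11 did not pass (95% interval -0.24 to 0.012, adjusted p = 0.160 from limma). Rasa3, which also acts on the small GTPase Rap1 and is known from platelet and red cell biology, was counted at 1035, 1039, 1035 and 1007 in NA MPs. In WT MPs it was counted at 1003, 955, 983, 984 and 1029. Values of NA MP replicates 1, 2 and 3 were above all WT MP samples, and replicate 4 was below WT MP replicate 5. The groups were narrow, with a coefficient of variation of 1.46% and 2.75%. The log2 fold change of 0.055 (95% interval -0.018 to 0.13) did not pass in limma (adjusted p = 0.251), while the exact permutation test of Rasa3 alone gave p = 0.0317, without adjustment. A rise of over 9.31% lies outside the interval.

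These are bulk samples, in which fewer cells of a type and less RNA per cell cannot be told apart, and markers of other cell types moved between the groups. The summed level of 13 erythroid markers was 6119.9 to 7749 normalised counts in NA MPs and 11318 to 12509.7 in WT MPs, with 10 of the 12 tested lower in NA MPs. Set beside this and the marker counts below, 16.9% of all genes tested were higher and 17.3% were lower. The sum of 10 pro-B and pre-B markers was 1376 to 2479.6 in NA MPs and 355 to 390.2 in WT MPs, with 10 of 10 higher in NA MPs. Sums of 8 mast cell and basophil markers were 3782 to 4352 and 2671 to 2934, with 6 of 8 higher and 1 lower. The 9 neutrophil markers summed to 3374 to 5254 and 2819 to 3341, with 3 of 7 tested higher and 1 lower. In these 4 lists the sums of the groups did not overlap. For 8 megakaryocyte markers (1544 to 1786 and 1638 to 1806, 1 of 7 higher and 3 lower) and 8 monocyte markers (12934 to 15409.5 and 12580.2 to 13514, 4 of 7 higher and 1 lower) they did. Of 7 T cell markers, the defining genes Cd3e and Cd3g were at 0 in all samples, and their sum was 45.6 to 66.95 and 11.1 to 18.6, most of it Lck. Ly6a, which encodes the Sca1 antigen that the gate left out, was at 17.2 to 23.1 and 12.2 to 23.01. Ebf1, Pax5, Vpreb3, Cma1 and Mmp8 of these lists reached the filter on low values only through the group where they were high. The part of these cells in the values of Spry1, Spred3 and Rasa1 was not tested.

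Of 5 other Ras GAP genes tested, Rasa4 and Rasal3 were higher in NA MPs and Rasal2 was lower, each without overlap between the groups, and the median log2 fold change was 0.10. Among all genes tested, 34.3% passed the threshold and 26.3% showed no overlap between the groups. Rasa4, a GAP regulated by calcium, was at 891, 999.9, 1049.9 and 943 normalised counts in NA MPs. In WT MPs it was at 727, 687, 733, 745 and 696. Its log2 fold change was 0.43 (SE 0.043, adjusted p = 3.87e-11 from limma), and the lowest NA MP value was well above the highest WT MP value. Rasal3, a GAP of blood cells, rose from 609 ± 23.1 to 707 ± 33.6 (log2 fold change 0.21, adjusted p = 0.000143 from limma). Rasal2 fell from 57.8 ± 6.64 to 40.3 ± 2.299 (log2 fold change -0.50, adjusted p = 0.00315 from limma). The summed level of these GAP genes was 1872 to 2071 in NA MPs and 1556 to 1708 in WT MPs. Whether they differed more than the members was not tested.

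**Figure D3:**
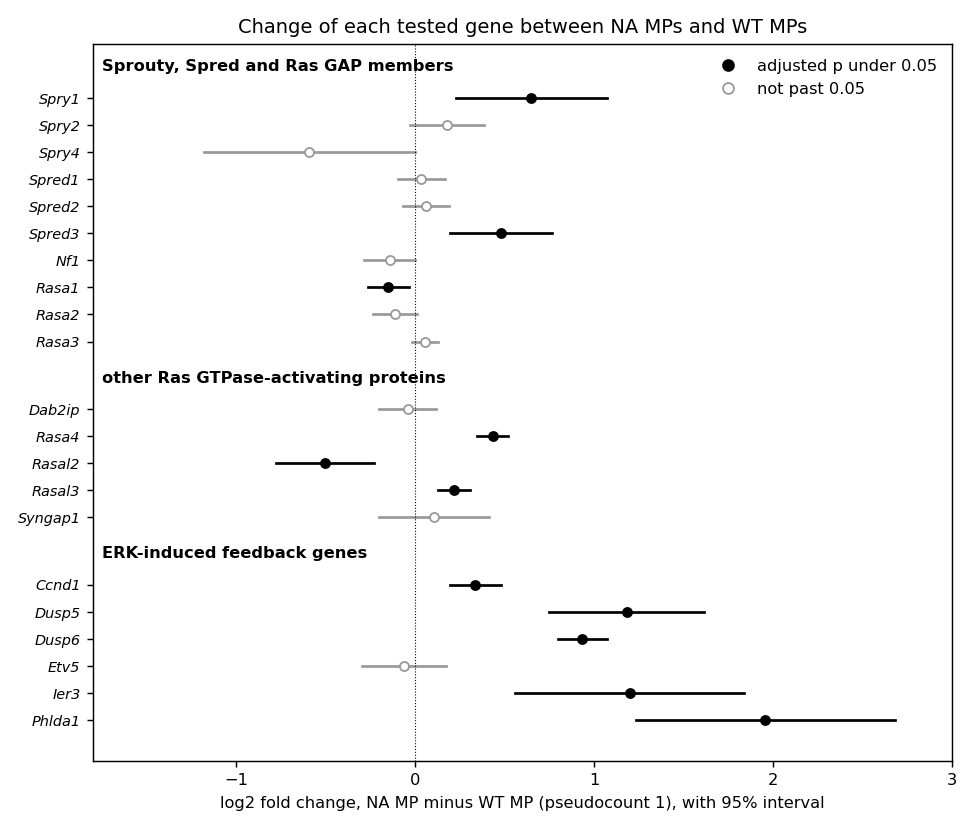
Log2 fold change of NA MPs over WT MPs (x axis) with its 95% interval from limma for the members, the other Ras GAPs and the ERK-induced feedback genes, each gene on a line of its own. Filled black points are past an adjusted p of 0.05. Of the members 3 of 10 are, beside 34.3% of all genes tested. Of 12 feedback genes listed 6 were tested, and 5 of these are past it. Phlda1, which passed the filter on low values through the NA MP samples alone, is farthest to the right at 1.96.

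Of 7 Ras GTPases, the substrates of these GAPs and their relatives, 1 rose and 1 fell, and the median log2 fold change was -0.078. Beside this count and that of the exchange factors below, 34.3% of all genes tested were past the threshold. Rras2, a Ras-related GTPase, was at 42.02 to 48.99 normalised counts in NA MPs and 19.4 to 24.8 in WT MPs, with log2 fold change 1.09 (SE 0.17, adjusted p = 1.58e-06 from limma). Hras was at 219 ± 18.4 and 246 ± 9.99, with log2 fold change -0.17 that lay at the edge of the threshold (adjusted p = 0.048 from limma), and in 10 of 21 alternative settings no Ras GTPase was lower past the threshold. The other 5 did not pass. Of 4 exchange factors tested, which load Ras with GTP, Sos1 fell from 343 ± 15.5 to 277 ± 16.6 (log2 fold change -0.31, adjusted p = 5.11e-05 from limma) and the other 3 did not pass. Their median was 0.095.

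Among 14 adaptors that link receptors to Ras, 4 rose and 4 fell, and the median log2 fold change was 0.11. The share to set beside this and the other counts of this paragraph is 34.3% of all genes tested. Dok2 and Dok3, adaptors that dampen receptor signals, had the largest changes among the 8 past the threshold. Dok2 was at 125 to 132 normalised counts in NA MPs and 64.7 to 82.5 in WT MPs (log2 fold change 0.82, adjusted p = 8.51e-09 from limma). Dok3 was at 702 to 749 and 507 to 547 (log2 fold change 0.47, adjusted p = 7.72e-12 from limma). For both genes the groups were far apart. Cbl, the ubiquitin ligase bound by Sprouty proteins, was lower at -0.26 (adjusted p = 0.00341 from limma), as was Frs2, the docking protein of fibroblast growth factor receptors, at -0.18 (adjusted p = 0.00686 from limma). Of 9 tested partners and modifiers of Sprouty and Spred proteins, Cbl fell and Cav2, a caveolin, rose by 1.001 on the log2 scale (adjusted p = 0.0035 from limma), and 7 did not pass. Cav2 reached the filter on low values through the NA MP samples, where it was high, and only 2 WT MP samples were at 10 or above. Of 9 receptor tyrosine kinases, 2 rose and 2 fell, with a median of -0.047. Tek, the angiopoietin receptor, fell from 40.2 ± 6.63 to 10.5 ± 2.89 (log2 fold change -1.86, adjusted p = 1.07e-09 from limma), and it reached the filter on low values through the WT MP samples, where it was high. Pdgfrb, a platelet-derived growth factor receptor, rose from 207 ± 14.2 to 430.2 ± 19.7 (log2 fold change 1.06, adjusted p = 4.42e-18 from limma), and Flt3, a cytokine receptor of early progenitors, rose by 0.42 on the log2 scale. Insr, the insulin receptor, was lower at -0.17.

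Downstream of Ras, 1 of 10 tested Raf, MEK and ERK genes and scaffolds rose and 2 fell, and the median log2 fold change was -0.047. By comparison, 34.3% of all genes tested were past the threshold in either direction. Ksr1, a scaffold of the kinases, was higher at 0.25 (adjusted p = 0.00167 from limma). Shoc2, a scaffold that activates Raf, was lower at -0.17 (adjusted p = 0.025 from limma). Of 12 ERK-induced feedback genes listed, 6 were tested and 5 rose, each without overlap, with a median of 1.06 beside -0.0081 over all genes. Of all genes tested, 16.9% were higher and 13.5% were higher without overlap. As this list was chosen with earlier results of these data known, its excess over all genes is not an independent result.

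Dusp6, a phosphatase of ERK, was at 461, 408, 539 and 538 normalised counts in NA MPs. In WT MPs it was at 241, 248, 265, 268 and 243, so the groups were far apart (log2 fold change 0.93, SE 0.067, adjusted p = 9.60e-14 from limma). Dusp5, a nuclear phosphatase of ERK, was at 42.5 to 116 in NA MPs and 24.2 to 30.8 in WT MPs (log2 fold change 1.18, adjusted p = 0.000116 from limma). Ier3, an early response gene, was at 96.05 to 212 and 47.9 to 86.7 (1.197, adjusted p = 0.0117 from limma), and Phlda1, an inhibitor of receptor and Akt signalling, at 12.1 to 23.97 and 1.08 to 8.005 (1.96, adjusted p = 2.52e-05 from limma). Phlda1 passed the filter on low values through the NA MP samples alone. Sprouty and Spred genes are themselves known as ERK-induced in many tissues. Here Spry1 and Spred3 were past the threshold in that direction, with smaller log2 fold changes than these 4 genes. Ccnd1, the other feedback gene that rose, changed less than both, at 0.33 (adjusted p = 0.000213 from limma). Etv5, also a tested feedback gene, did not pass (-0.062, adjusted p = 0.725 from limma). Spry2 (0.18), Spred1 (0.032) and Spred2 (0.060) did not pass, nor did Spry4, which was lower on average (-0.59). Differences in response between the feedback genes and the members were not tested.

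The immediate early genes, which are switched on within minutes by ERK and by stress such as cell handling, were also higher in NA MPs. Of 12 tested, 11 rose, each without overlap between the groups, and the median log2 fold change was 2.57. The largest were Fosb at 4.21, Klf2 at 3.24, Dusp1 at 2.91 and Fos at 2.896. Over all genes tested, 16.9% were higher and 13.5% were higher without overlap. The immediate early genes, too, were listed with earlier results of these data known. The summed normalised count of 15 such genes was 18312, 12578, 25492 and 27430.2 in NA MP replicates 1 to 4. In WT MP replicates 1 to 5 it was 2694, 3546, 4275, 5872 and 4511. Within NA MPs, replicates 3 and 4 held both the highest sums and the highest counts of Spry1, Spry2 and Spry4, and replicate 2 held the lowest sum and the lowest Spry1 and Spred3. Replicate 1 went against this order, with the highest Spred3 and the lowest Spry2 and Spry4 of the NA MP samples at a sum below those of replicates 3 and 4. The highest Spry1 value among WT MPs, in replicate 4, went with their highest sum. Spry2 in that sample was the lowest of all WT MP samples. The part of the immediate early genes in the values of Spry1 and Spred3 was not tested.

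**Figure D4:**
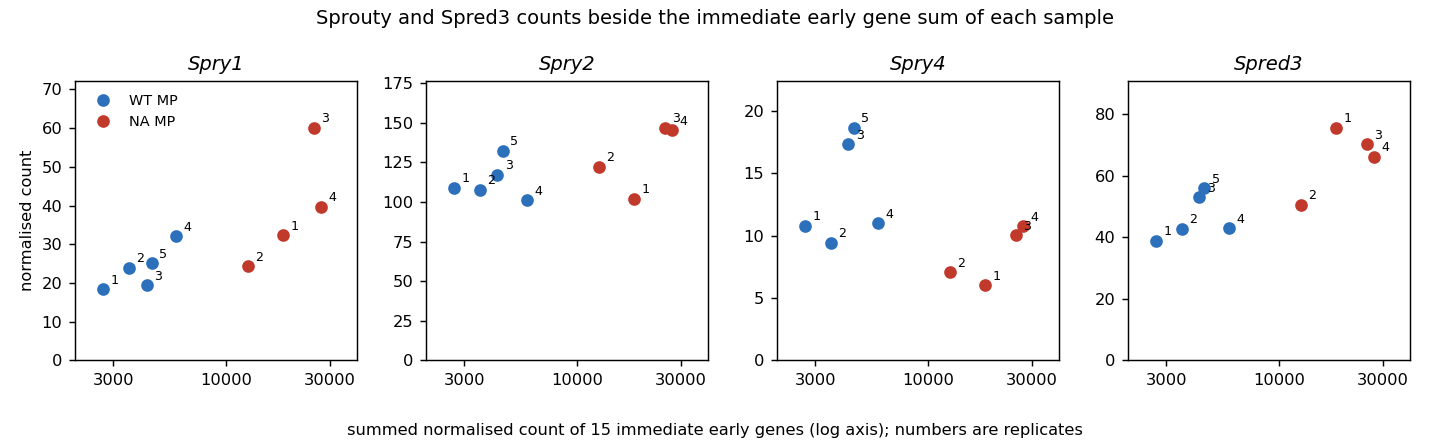
Normalised count of Spry1, Spry2, Spry4 and Spred3 (y axes, from 0) against the summed normalised count of 15 immediate early genes (x axis, log scale) in each sample, with replicate numbers (WT MPs blue, NA MPs red). All NA MP sums lie above all WT MP sums, and NA MP replicate 3 has the highest Spry1 count at 60.1.

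Some further genes adjoin the members. Nf1 holds small genes within an intron, on the opposite strand. Of 4 listed, Evi2a was at 89.9 to 108 normalised counts in NA MPs and 64.02 to 81.1 in WT MPs and rose (log2 fold change 0.40, SE 0.11, adjusted p = 0.00307 from limma), opposite in sign to its host. It shares exon sequence with Evi2 on the same strand, so the split of reads between them is uncertain. Evi2 was at 1095 to 1161 and 1077 to 1159 and did not pass (0.028), Omg was at 1.01 to 7.44 and 0.932 to 4.002 and was too low to be tested, and Evi2b was not matched. Among 10 genes of Rap GTPases and their regulators, which Rasa3 also touches, 3 rose and 2 fell, with a median of -0.0043. This count stood beside 34.3% of all genes tested past the threshold in either direction. Rap1gap, which turns Rap1 off, rose from 25.4 ± 2.75 to 53.9 ± 6.75 (log2 fold change 1.05, adjusted p = 1.00e-06 from limma). Rapgef3, the exchange factor that cyclic AMP activates, rose from 162 ± 8.302 to 269 ± 19.4 (log2 fold change 0.72, adjusted p = 2.86e-11 from limma). Rap1b was lower at -0.23 (adjusted p = 3.32e-06 from limma), and Sipa1, another Rap GAP, was higher at 0.18 (adjusted p = 0.00267 from limma).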

How the data were processed

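RNA of 4 NA MP and 5 WT MP samples was sequenced on NextSeq 500 from TruSeq libraries. The authors used RSEM and DESeq2, on mm10 per the labels. Versions, annotation and use of strand are not given in the sources used here. The deposited table is named as raw counts, but the signal values the authors deposited are expected counts divided by a factor per sample (tolerance for whole multiples 0.05), with totals of 6602851 to 6734284. Count models had been planned, and as the values are scaled limma 3.58.1 in R 4.3.3 was used instead, on log2 of the deposited value plus 1.

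Genes with at least 10 in at least 4 samples (11987 of 37980) were tested with trend and robust options, no covariate, and Benjamini-Hochberg adjustment over all tested genes at 0.05. Fold changes on this scale understate changes of low genes. Single members were also tested by an exact two-sided permutation of the group labels. The script was tested on simulated data that gave all genes the same low spread beyond counting error. That test does not bear on genes that vary more, such as Spry1. GENCODE M21 named 32916 genes. Groups came from the sample titles.

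Members and gene lists were chosen with earlier results of these data known. The genes named are all members, up to 4 genes per list (those past the threshold with the largest change, and all of lists of 4 or fewer), and marker genes with their sums. Ccnd1 and Etv5 were named outside this rule, so that all tested feedback genes are given. A few that the rule would name are not reported here. Genes most like a member were to be named for members past the threshold without overlap, and there were none. Alternatives were other scalings, filters, pseudocounts and thresholds, limma without its robust option, voom weights, a replicate block, a correction for GC content and length, and leaving out each sample. Numbers of reads cover counting error only.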

Additional observations from a re-analysis of the deposited data

Results flagged for a closer look

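Samples of 1 group were compared for a lone value, by the gap of the highest or lowest sample to its neighbour as a share of the range of the group (Dixon's test at 95%). Of 128 groups checked, over the genes that the naming rule chose and the summed lists, 8 held such a sample, against 6.4 expected by chance at 1 in 20. Nf1 was at 240.5 normalised counts in NA MP replicate 4, above the other NA MP samples and within the WT MP range. Rasa1 was at 414 in NA MP replicate 1, again above the other NA MP samples and within the WT MP range. Rasa3 was at 1007 in NA MP replicate 4, below the other NA MP samples. Among the other genes of the pathway, Rasal2 was at 69.3 in WT MP replicate 3, Cbl at 704 in WT MP replicate 1 and Omg at 4.002 in WT MP replicate 4. The summed Ras exchange factors were at 3343 in WT MP replicate 5, and Ly6a, the gene of the Sca1 antigen, was at 17.2 in NA MP replicate 2.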

How the results depend on the processing

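Of the 10 members, 3 were past the threshold. The number was 1 without NA MP replicate 3 and 1 at a threshold of 0.01, in both cases Spred3, and it ran from 1 to 4 when each sample was left out in turn. It was 2 or 3 in the other settings. Over all genes 4107 were past the threshold, with a range of 3634 to 3952 when samples were left out and 2857 at a threshold of 0.01. The sign of Spred1 was reversed without NA MP replicate 1 (log2 fold change -0.039, adjusted p = 0.684 from limma), and over all left-out samples it ran from -0.039 to 0.11. Spry1 passed in 19 of 20 settings, and Rasa1 in 12 of 20. Beside the left-out samples, Rasa1 did not pass with no filter on low values (adjusted p = 0.0524 from limma) or after correcting for GC content and length (-0.10, adjusted p = 0.162 from limma), for which 97.1% of the tested genes had a value. Why these values moved was not tested. In the short lists single genes crossed the threshold. The Ras GTPases past it numbered 1 in place of 2 in 10 settings, exchange factors 2 or 3 in place of 1 in 9, Rap genes 3 in place of 5 in 2, and partners of Sprouty and Spred proteins 1 or 4 in place of 2 in 3. The counts of the other pathway lists stayed within 1.5 times.

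Replicate numbers 1 to 4 occur in both groups. Deviations of same-numbered samples from their group means had weak correlations of 0.0062, 0.0031, -0.020 and 0.057. The labels do not say how the numbers were given. Correlations over all genes cannot tell whether same-numbered samples shared a step that touched few genes. With the number as a replicate block 3693 genes were past the threshold, and 3 members, 2 higher and 1 lower. With the block and the correction for GC content and length together, Rasa1 did not pass (log2 fold change -0.13, adjusted p = 0.0683 from limma). The planned count models and the effect of rounding were not run. The values were scaled before deposit, but count models could have been run on the recovered reads. Pseudocounts of 0.5 and 4 and voom weights on the recovered reads were chosen after seeing the data and left 3 members past the threshold. For Spry1 and Spry4, with as few as 17 and 5 reads in a sample, counting error is largest.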
